A study of Homo sapiens with 72 samples.

Results

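The regions described here are the broad H3K4me3 domains of Raji only. They were selected on the H3K4me3 peaks of untreated libraries: peaks of the 3 Raji libraries on chromosomes 1 to 22 and X were merged where they overlapped by at least 1 bp, and a merged region was kept if all 3 libraries had a peak in it, if it was 5000 bp or wider, and if it met no merged region of 5000 bp or more in untreated REH cells. The rule gave 557 domains out of 11896 merged Raji regions. Of the 11896 regions, 9868 held a peak in all 3 libraries, and 786 of these were 5000 bp or wider. The other 229 of the 786 met a broad REH region and are called broad in both lines. The remaining 9082 regions with a peak in all 3 libraries were narrower.

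H3K4me3 is laid down at active promoters by methyltransferases of the SET1 and MLL families, and most promoters carry it as a short block around the transcription start. Domains that run for several kilobases into the gene are known from many tissues, where they often lie at genes of cell identity. H3K4me2 marks promoters and enhancers more widely, and H3K27me3 is the mark of Polycomb repression. Bryostatin binds the diacylglycerol site of protein kinase C, a kinase that lies upstream of NF-kB and of the mitogen-activated kinases in B cells.

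Raji is a Burkitt lymphoma line that carries Epstein-Barr virus, and REH and NALM6 are acute lymphoblastic leukemia lines of precursor B cells. Each line was profiled by Cut&Tag for H3K4me2, H3K4me3 and H3K27me3, untreated or after overnight treatment with 1 nM bryostatin, with 3 libraries per group and 54 libraries analysed here. The labels give the treatment as overnight, and the study's text gives a full day. Each line stands for 1 tumour, and no source used here says whether same-group libraries came from separate cultures, so p-values measure only the spread between these libraries. Promoters of mature B cell markers fit the labels in Raji, where 4 of 5 (CR2, CD86, MS4A1 and CD40) had an H3K4me3 peak within 1000 bp in all 3 untreated libraries and 0 of 5 did in REH. Of the precursor markers 0 of 5 had one in Raji and 4 of 5 (DNTT, RAG1, RAG2 and IGLL1) had one in REH, and T cell, myeloid and erythroid markers had none in either line.

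The untreated H3K4me3 libraries held 47.9, 20.1 and 21.0 M mapped reads in Raji and 27.9, 18.8 and 10.2 M in REH. The deepest Raji library, replicate 1, had the shortest peaks, with a median of 1690 bp against 2630 and 2500 bp. Without Raji replicate 2 the rule left 328 domains, and without any other single library it left between 440 and 627. One H3K27me3 library stood apart: in untreated Raji replicate 2, 528 of the 557 domains held an H3K27me3 peak, against 4 and 31 domains in replicates 1 and 3. This was not particular to the domains: that library had a peak in 94.8% of them, in 96.9% of the domains broad in both lines and in 82.3% of the narrower Raji regions.

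The promoter sequences below show what the letters of these domains look like, from a CpG-rich start to starts with few CpG. They are RefSeq windows on GRCh38.p14 from 250 bases before to 50 bases after the start, printed 5′ to 3′ on the gene's strand. RHOH, CIRBP, MYO1G and CSK have the widest domains with 1 protein-coding start and the window inside the domain. CD80 has the widest such domain with no H3K4me3 peak in untreated REH or NALM6. BIRC3 was added after its values were seen, as the gene of the NF-kB list with no H3K4me3 peak in those lines. Capitals mark matches on either strand to the motifs GAGGAAGT (ETS and PU.1), TGANTCA (AP-1), TGACGTCA (cyclic AMP response), CACGTG (MYC and USF), CAGGTG (E2A and TCF4), ATGCAAAT (octamer) and the NF-kB motif, and matches may overlap.
RHOH, chr4:40190830-40191129, plus strand: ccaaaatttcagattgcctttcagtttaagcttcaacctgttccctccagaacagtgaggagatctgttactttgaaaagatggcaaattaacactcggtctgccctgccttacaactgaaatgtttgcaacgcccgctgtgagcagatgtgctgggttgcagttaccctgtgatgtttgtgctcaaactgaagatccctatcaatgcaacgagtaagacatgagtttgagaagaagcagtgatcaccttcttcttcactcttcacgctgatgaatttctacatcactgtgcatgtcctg
CIRBP, chr19:1269082-1269381, plus strand: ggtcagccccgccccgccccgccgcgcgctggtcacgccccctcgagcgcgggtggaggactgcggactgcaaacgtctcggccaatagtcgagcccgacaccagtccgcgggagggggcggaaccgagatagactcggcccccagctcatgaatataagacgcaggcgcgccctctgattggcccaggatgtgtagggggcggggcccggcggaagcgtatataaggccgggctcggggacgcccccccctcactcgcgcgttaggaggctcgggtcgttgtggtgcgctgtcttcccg
MYO1G, chr7:44978966-44979265, minus strand: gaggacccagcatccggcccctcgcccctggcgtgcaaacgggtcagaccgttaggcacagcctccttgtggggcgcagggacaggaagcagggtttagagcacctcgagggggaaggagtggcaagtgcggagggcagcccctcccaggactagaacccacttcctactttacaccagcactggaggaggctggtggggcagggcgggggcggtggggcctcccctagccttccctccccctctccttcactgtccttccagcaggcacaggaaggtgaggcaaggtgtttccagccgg
CSK, chr15:74788294-74788593, plus strand: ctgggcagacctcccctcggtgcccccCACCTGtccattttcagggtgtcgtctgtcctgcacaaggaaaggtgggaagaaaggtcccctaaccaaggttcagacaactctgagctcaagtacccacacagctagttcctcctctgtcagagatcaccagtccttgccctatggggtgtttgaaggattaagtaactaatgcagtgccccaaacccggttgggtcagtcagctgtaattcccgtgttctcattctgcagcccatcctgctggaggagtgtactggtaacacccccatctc
CD80, chr3:119559565-119559864, minus strand: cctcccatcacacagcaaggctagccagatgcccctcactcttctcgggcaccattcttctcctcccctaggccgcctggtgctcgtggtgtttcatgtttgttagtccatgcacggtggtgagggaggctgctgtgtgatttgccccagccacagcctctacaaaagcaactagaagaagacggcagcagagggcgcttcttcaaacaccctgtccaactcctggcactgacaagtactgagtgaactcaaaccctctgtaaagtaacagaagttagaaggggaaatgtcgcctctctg
BIRC3, chr11:102317234-102317533, plus strand: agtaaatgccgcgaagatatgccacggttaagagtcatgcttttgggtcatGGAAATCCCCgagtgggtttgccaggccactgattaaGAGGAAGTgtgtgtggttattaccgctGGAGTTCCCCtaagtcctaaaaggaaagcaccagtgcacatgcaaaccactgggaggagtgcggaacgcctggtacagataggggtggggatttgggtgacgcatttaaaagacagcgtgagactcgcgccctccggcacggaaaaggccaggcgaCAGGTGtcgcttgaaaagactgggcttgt

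The windows differed widely in composition. CIRBP, a cold-inducible RNA-binding protein, had 37 CpG and a GC content of 70.3%, while CSK, the kinase that holds Src family kinases in check, had 4 CpG and RHOH had 5 CpG with a GC content of 44.3%. BIRC3, an inhibitor of apoptosis, had 4 matches: 2 to the NF-kB motif, 1 to the ETS motif and 1 to the E2A motif. CSK had 1 match to the E2A motif, and no match was found in the windows of RHOH, CIRBP, MYO1G and CD80.

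RefSeq windows were found for 519 of the 654 protein-coding genes with a start in the domains. A window was counted by its gene's annotated start and need not lie inside the domain itself, as at CD83 and TNIP1. The NF-kB motif was in 54 of the 519 windows (10.4%), in 24 of 250 windows of domains broad in both lines (9.60%), in 6.14% of 7284 windows of narrower Raji regions and in 6.37% of all 15315 windows. The octamer was in 2.89% of the domain windows against 1.70% of all windows and 3.20% for domains broad in both lines, and the ETS motif in 4.05% against 2.51% and 3.20%. AP-1 sites were in 3.47% of the domain windows, 4.40% for domains broad in both lines, 3.57% for narrower regions and 5.75% of all windows. In the 35 windows of domains with no H3K4me3 in untreated REH, 6 (17.1%) had an AP-1 site and 2 (5.71%) the NF-kB motif. The E2A motif was in 10 of these 35 (28.6%), in 18.5% of the domain windows and in 19.8% of all windows. These 35 windows differed in composition, with medians of 6 CpG and 54.7% GC against 28 CpG and 66.7% for the domain windows. These shares were not tested, and genes in 1 domain share its window of the genome.

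The domains were 5000 to 18240 bp wide, with a median of 5800 bp and quartiles of 5350 and 6570 bp. Of the 557, 496 (89.0%) held the canonical start of a protein-coding gene, 40 held another start of one, 12 held only a long non-coding RNA start and 9 held none. At least 2 protein-coding starts lay in 133 domains (23.9%), against 29.7% of the domains broad in both lines, and narrower regions are also shorter. The observed to expected CpG ratio had a median of 0.498 in the domains, 0.573 in those broad in both lines and 0.636 in narrower regions. The median GC content was 53.8%, 57.9% and 54.3%. Both were taken over whole regions, which differ in width. In the RefSeq promoter windows, which have a fixed length, the medians were 28, 27 and 27 CpG. The GC content of these windows was 66.7%, 67.5% and 65.3%, so the starts in the domains were not poorer in CpG.

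In the 363 domains with a single protein-coding start, the domain reached a median of 1659 bp upstream and 4141 bp downstream of it. It reached further into the gene than upstream in 318 of the 363 (87.6%), in 77.1% of the corresponding domains broad in both lines and in 86.9% of the narrower regions. The wide domains thus kept the lean towards the gene body that narrower regions had.

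**Figure D1:**
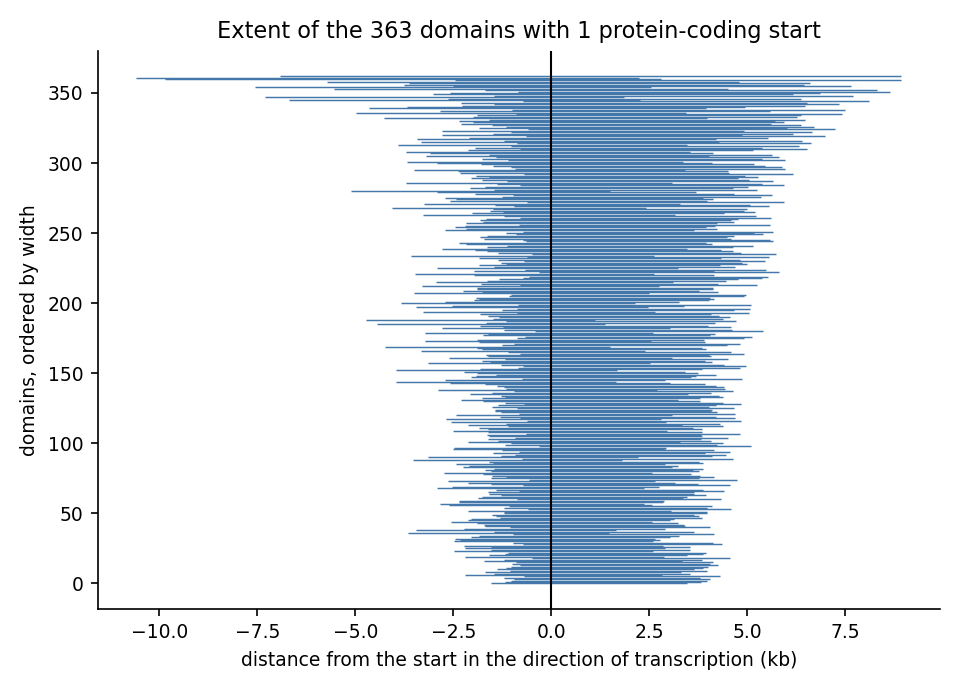
Each line spans 1 of the 363 domains with a single protein-coding start, placed by its distance from that start in kb along the direction of transcription and ordered by width from the bottom. Most lines reach further to the right of the start than to the left, as in 318 of the 363 domains.

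The widest domain covered MFSD3, RECQL4 and LRRC14 on chromosome 8 over 18240 bp, and the next was RHOH on chromosome 4 from 40190111 to 40205960 (15850 bp). H3K4me3 peaks covered 11350, 15850 and 12150 bp of the RHOH domain in the 3 untreated Raji libraries and 15060, 15800 and 10120 bp in the treated ones. All 6 REH libraries had 0 bp there, and untreated NALM6 had 557, 4970 and 4050 bp. RHOH was thus broad in Raji, of middling width in NALM6 and without a peak in REH.

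CIRBP followed with 12830 bp, MYO1G, a class I myosin of blood cells, with 12660 bp, and a stretch over TRPT1, NUDT22, DNAJC4 and VEGFB with 12190 bp. The others of the 10 widest were CSK (11380 bp), RPL23A with TLCD1 and NEK8 (11210 bp), MOB3A with IZUMO4 (11150 bp), GLB1L with STK16, TUBA4A and TUBA4B (11010 bp) and IQSEC1 (10730 bp). Only RHOH of these 10 lacked H3K4me3 in REH. At MYO1G the untreated Raji libraries had 10460, 12660 and 11740 bp, REH had 6340, 6020 and 3870 bp, and NALM6 had 0, 2560 and 4700 bp.

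Width in REH can be divided over several regions. A single REH region met 431 domains, 2 or more met 62 domains, and in 38 of these 62 the REH regions together covered 5000 bp or more. At MFSD3, RECQL4 and LRRC14 the REH libraries had 12030, 11080 and 8840 bp of peaks in all, but the widest merged REH region was 4240 bp. Such domains are unlike RHOH: merged over the libraries, they form a single region in Raji and several in REH. Merged width is not the width of single peaks. In untreated Raji replicates 1, 2 and 3, a single peak of 5000 bp or more met 54, 421 and 312 of the 557 domains.

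**Figure D2:**
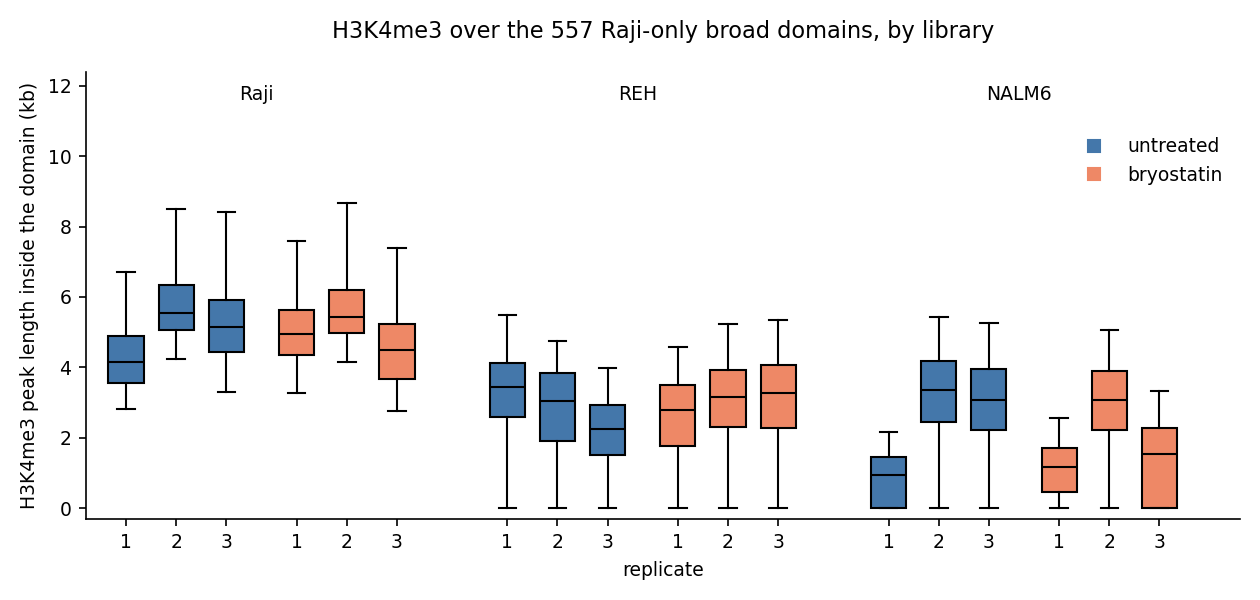
Boxes show the H3K4me3 peak length in kb inside the 557 domains in each library of the 3 lines (line, median; box, quartiles; whiskers, 5th to 95th percentile), untreated in blue and bryostatin-treated in orange. Untreated Raji medians were 4150, 5540 and 5150 bp and untreated REH medians 3440, 3040 and 2260 bp, and NALM6 replicate 1, deposited with another scaling, lies below the other untreated NALM6 libraries.

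The limits of the rule cut through a continuous range of widths. Just inside were CTDNEP1 with ELP5, EVI2B, RASGRP3, FBXO15 with TIMM21, and a chromosome 9 stretch with LINC01410, all at 5000 bp, and just outside were RCC2, PKIG, PTDSS2, PREX1 and POLR2A at 4990 bp. On the REH side, YME1L1 with MASTL and NOA1 with POLR2B were kept with a REH region of 4980 bp and SOX12, TSSC4 and MTFP1 with 4970 bp. HNRNPF, MXI1 and FLII with MIEF2 were left out at 5010 bp, as were PDE4A and UBE2V1 at 5020 bp. REH had 443 merged regions of 5000 bp or more, fewer than Raji, and 432 of them held a peak in all 3 libraries. With the REH limit lowered to 4310 bp, where REH has as many such regions as Raji, 450 domains were left, and with a limit of 2500 bp 135 were left.

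The state in REH, which the rule used, ranged from nothing to nearly broad. No untreated REH library had a peak in 64 domains (11.5%). By library, 88.5%, 76.8% and 80.1% of the domains held a REH peak, and so did 92.7%, 67.0% and 80.1% of the narrower Raji regions. The widest REH region was under 2500 bp in 71 domains (12.7%), 2500 to under 4000 bp in 257 (46.1%) and 4000 to under 5000 bp in 165 (29.6%). The median REH width where there was a peak was 3560 bp (493 domains). Without REH replicate 1, the deepest REH library, 110 domains had no peak in place of 64, so at this depth a missing peak does not show that the mark is absent.

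Among the 64 domains with no H3K4me3 in REH are those of CD80, IRF8, RUNX3, POU2F2, MS4A1, CXCR5, CCR7, MEF2B, CD48, CD180, IL21R, SLAMF1, BIRC3 and BCL2A1 (chosen after their values were seen). In treated REH libraries 63 of the 64 still had no peak, and ITGB2 was the exception. H3K4me2 was present in all 3 untreated REH libraries in 19 of the 64 and in at least 1 in 23. None of the 3 marks was found in any untreated REH library in 28 of the 64.

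Of the 64, 49 also had no H3K4me3 peak in any untreated NALM6 library. The 5 widest were CD80, GCNT2, ADORA2A, RUNX3 and CYTIP. At CD80, the ligand of CD28 and CTLA4, the domain lies on chromosome 3 from 119553161 to 119563370, and peaks covered 8310, 10210 and 8060 bp of it in untreated Raji. GCNT2, an enzyme of glycan branching, had 5590, 7590 and 9170 bp. ADORA2A, an adenosine receptor, had 6100, 8230 and 7550 bp. These genes had 0 bp in all untreated REH and NALM6 libraries. RUNX3, a Runt family transcription factor, had 5290, 6910 and 5280 bp in Raji, and its domain held H3K4me2 in all 3 and H3K27me3 in 2 untreated REH libraries. CYTIP, a partner of cytohesin, had 4970, 7360 and 5940 bp.

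H3K27me3 was present in all 3 untreated REH libraries in 31 domains (5.57%), 11 of which had no REH H3K4me3 and 13 of which had H3K4me3 in all 3 REH libraries. By library, 8.26%, 6.46% and 6.64% of the domains held an untreated REH H3K27me3 peak. So did 6.11%, 3.93% and 4.37% of the domains broad in both lines. In narrower regions, which are also shorter, the shares were 4.39%, 2.60% and 2.68%. These shares were not tested. The 5 widest of the 31 were KREMEN2 with PAQR4, SEMA7A, NFATC1, KCNN3 and a stretch near TMEM121. At SEMA7A, a membrane-bound semaphorin, H3K4me3 covered 6290, 8810 and 8010 bp in Raji and 2840, 0 and 1250 bp in REH, where H3K27me3 covered 5110, 4810 and 3270 bp. SERPINA9, a serpin of germinal centre B cells, had 5080, 5570 and 5530 bp of H3K4me3 in Raji and none in REH, where H3K27me3 covered 5530, 5490 and 3060 bp. DUSP5, a phosphatase of the kinase ERK, had 5200, 6680 and 5960 bp of H3K4me3 in Raji and none in REH, where H3K27me3 covered 6860, 6860 and 6240 bp. At DUSP5 H3K27me3 thus covered most of the domain in all 3 untreated REH libraries.

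NALM6, the other precursor line, was not used by the rule. In its replicates 2 and 3 a merged H3K4me3 region of 5000 bp or more met 41 domains (7.36%), and 68 had no peak. The median width where there was one was 3560 bp (489 domains), which was also the REH median. The medians are not alike in kind. REH widths merge all its untreated libraries and were kept under 5000 bp by the rule. NALM6 widths merge replicates 2 and 3 and reached 7530 bp.

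Gene lists of 10 kinds were set against the domains, and the whole annotation gives the background: 654 of 19970 protein-coding genes (3.27%) had their start in a domain. Of the 19970, 10041 had no start in a Raji region called in all 3 untreated libraries, against 3 of 24 genes on the NF-kB list. The 3.27% is thus a low background for lists whose genes mostly carry the mark. The lists were written with earlier results of these data known, so their counts describe the domains and are not independent evidence. NF-kB subunits and target genes had the highest share, 12 of 24. Leukocyte adhesion and cytoskeleton genes followed with 8 of 20 (40.0%), germinal centre and mature B cell genes with 11 of 30 (36.7%), B cell receptor signalling genes with 7 of 26 (26.9%) and B lineage transcription factors with 5 of 22 (22.7%). Early response genes had 4 of 22 (18.2%) and MHC class II genes 2 of 13 (15.4%). Precursor B cell genes had 0 of 18, and T cell genes and myeloid and erythroid genes had 0 of 14 each. In these lists 14, 14 and 13 genes had no start in any region called in all 3 untreated Raji libraries.

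On the NF-kB list, subunits and their inhibitors were both represented: the subunit genes NFKB2 and REL, the inhibitor genes NFKBIA, NFKBIE and NFKBID and the atypical member BCL3. The targets were BIRC3, CFLAR, CD83, ICAM1, TRAF1 and TNIP1. TNIP1, which restrains NF-kB signalling, had the widest domain of the list, on chromosome 5 from 151078491 to 151088580 (10090 bp). Peaks covered 8310, 10090 and 9860 bp of it in untreated Raji and 2260, 2130 and 1220 bp in REH. TRAF1, an adaptor of TNF receptors, had 7200, 9170 and 5570 bp in Raji and 1750, 0 and 1300 bp in REH. NFKB2 had 5600, 7400 and 8410 bp in Raji and 4720, 3560 and 2670 bp in REH. Of the 12 genes, BIRC3 was the one with no H3K4me3 in REH, with 5000, 5420 and 4310 bp in Raji. TNFAIP3 was broad in both lines.

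Among germinal centre and mature B cell genes, CD80, CCR7, CXCR5, MEF2B, MS4A1 and SERPINA9 had no H3K4me3 peak in untreated REH. MS4A1, the CD20 antigen, had 4010, 5450 and 3460 bp in Raji. CCR7 and CXCR5, chemokine receptors that guide B cells within lymphoid tissue, had 5780, 6110 and 6030 bp and 3700, 5270 and 5070 bp. GCSAM, SPIB and TNFRSF13C, the BAFF receptor, had a peak in REH replicate 1 alone, of 1400, 2110 and 2070 bp. MYBL1 and S1PR2 had peaks in all REH libraries, with 2470, 2340 and 2000 bp and 2250, 1970 and 1740 bp. BCL6, the central repressor of the germinal centre, was broad in both lines.

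On the receptor signalling list, CD22 and PTPN6 form an inhibitory pair, in which the phosphatase PTPN6 binds the tail of CD22, a sialic acid receptor. The CD22 domain lies on chromosome 19 from 35327421 to 35334220 (6800 bp), with 5120, 6680 and 6430 bp of H3K4me3 in untreated Raji and 2930, 2750 and 2170 bp in REH. PTPN6 had 3960, 5470 and 4860 bp in Raji and 3590, 4120 and 3370 bp in REH, so its lines overlapped. The kinases SYK, LYN and BLK, the phosphatase INPP5D and the exchange factor VAV2 were the other genes of the list. BLK had 4130, 7620 and 3500 bp in Raji, so replicate 2 set its width. Of the genes broad in both lines, CD79B encodes a chain of the receptor itself.

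Of the transcription factors, IRF8, which acts in germinal centre B cells, had 6050, 6440 and 6590 bp in untreated Raji and 0 bp in REH and NALM6. POU2F2, which encodes OCT2, had 4920, 5430 and 5720 bp in Raji and none in REH. ID2, an inhibitor of E proteins, had 3440, 5050 and 3160 bp in Raji against 4310, 0 and 0 bp in REH. IKZF2 had 4740, 5760 and 5930 bp in Raji and 4730, 3660 and 1240 bp in REH. EBF1, PAX5, TCF3, IKZF1, FOXO1, BCL11A, FOXP1, ID3 and MEF2C were broad in both lines. For adhesion genes, LCP1, which bundles actin, held 2 domains of 10150 and 6210 bp, and ITGB2, the beta chain of leukocyte integrins, also held 2, of 6690 and 5070 bp. ARHGDIB, an inhibitor of GTPase cycling, had 3550, 6080 and 3910 bp in Raji and 4030, 4400 and 3330 bp in REH, so the lines overlapped. CORO1A, an actin regulator, had 4120, 4960 and 4940 bp against 4130, 4400 and 3640 bp. Of the early response genes, DUSP2, a nuclear phosphatase, had 6270, 8410 and 8270 bp in Raji and none in REH, and JUND, a subunit of AP-1, had 4060, 5190 and 5430 bp against 4030, 3520 and 3010 bp. CD48, a ligand of the SLAM family, had 5650, 6060 and 6110 bp in Raji and none in REH. The MHC class II genes were CD74 and HLA-DRB1, and the latter has near-identical relatives, so its reads may be shared.

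H3K4me2 was measured in separate libraries of the same cells. Since the rule itself contrasted untreated Raji with untreated REH, the H3K4me2 contrast is given as a description. A region's signal is the RPKM coverage summed over its peaks, divided by that of the library's median region, and 477 merged regions over the domains had a peak in all 6 libraries. Of the 477, 217 passed an adjusted p of 0.05 (limma) with more signal in Raji and 68 with less, against 23.8% and 23.0% of all 7999 regions. The median log2 difference, Raji minus REH, was 0.28 over the domains and 0.00 over all regions. For the mean signal per called base, 59 were higher and 78 lower in Raji, against 13.0% and 15.2% of all regions, and the median was −0.03.

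RUNX3 had 3.61, 3.50 and 3.74 multiples of the median H3K4me2 region in Raji and 0.411, 0.388 and 0.387 in REH (log2 difference 3.19). IL21R, the interleukin 21 receptor, had 4.22, 3.99 and 4.30 in Raji and 0.493, 0.404 and 0.416 in REH (3.26). PTAFR, the platelet-activating factor receptor, had 5.30, 5.11 and 4.86 in Raji and 0.596, 0.580 and 0.476 in REH (3.21), and SLC2A5, a fructose transporter, had 2.30, 3.31 and 4.23 against 0.341, 0.353 and 0.338 (3.21). The largest difference (3.93) was that of the LINC01410 stretch, which lies in a part of chromosome 9 with near-identical copies and is uncertain. The mean signal per called base at these regions differed less, by 1.18 at IL21R, 1.05 at PTAFR, 0.59 at SLC2A5, 0.49 at RUNX3 and 2.73 at the LINC01410 stretch, all higher in Raji. For this measure RUNX3 did not pass (limma, adjusted p = 0.0769), and at SLC2A5 (limma, adjusted p = 0.049) the libraries of the lines overlapped. REL went the other way, with 0.818, 0.737 and 0.794 in Raji and 1.14, 1.19 and 1.29 in REH (log2 difference −0.62).

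The treated libraries took no part in the choice, but they come from the same lines that the rule contrasted. In treated Raji the merged region was 5000 bp or wider at 470 of the 557 domains (84.4%), with a median of 5940 bp, and in treated REH it was at 29 (5.21%). The same rule applied to treated libraries of both lines gave 792 domains. Of the 557, 440 (79.0%) met one of these, and 437 of the 792 (55.2%) met one of the 557. A further 314 of the 792 were under 5000 bp in untreated Raji. Without treated Raji replicate 2 the 440 fell to 273.

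In treated libraries 425 merged regions over the domains had an H3K4me3 peak in all 6 libraries of Raji and REH, so domains with no REH peak are not among them. The rule contrasted the width of H3K4me3 in these lines untreated, and total signal is summed over called length. More total signal in Raji is thus in part built in by the choice, and this contrast is given as a description. Raji had more total signal in 254 and less in 35 (limma, adjusted p under 0.05), against 25.4% and 28.9% of all 6635 regions. The median log2 difference was 0.34 (quartiles 0.05 and 0.78) over the domains and −0.02 over all regions. For the mean signal per called base 91 were higher and 54 lower, against 13.2% and 15.5% of all regions, and the median was 0.02. The median over the domains was thus above that of all regions in total signal, and close to 0 in signal per base.

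The largest difference was again the LINC01410 stretch of chromosome 9 (log2 3.53 ± 0.09, SE). ZC3H12A, an RNase that degrades cytokine transcripts, had 4.73, 5.48 and 5.10 multiples of the median region in treated Raji and 0.565, 0.542 and 0.536 in treated REH. Its log2 difference was 3.22 ± 0.08 (SE; limma, adjusted p = 7.94e-10). SEMA7A had 4.06, 4.56 and 4.42 in Raji and 0.556, 0.546 and 0.453 in REH (3.07 ± 0.09, adjusted p = 1.96e-09). ECE1, the endothelin-converting enzyme, differed by 2.87 ± 0.09 and SH2B2, an adaptor of kinase signalling, by 2.52 ± 0.08. In these 4 genes the mean signal per base was higher in Raji too, by 2.14, 1.48, 1.85 and 1.31 on the log2 scale.

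Of the lists, B cell receptor signalling genes had 5 regions tested, with CD22, PTPN6, SYK and INPP5D higher and VAV2 lower in treated Raji. Of the NF-kB list 8 were tested, with TNIP1, NFKB2, BCL3, NFKBIE and CFLAR higher and NFKBID lower. With the mean signal per called base 1 receptor signalling region (INPP5D) and 0 NF-kB regions were higher (limma), and VAV2 and NFKBID were still lower. CD22 had 1.83, 2.16 and 1.72 in Raji and 0.783, 0.860 and 0.725 in REH (log2 difference 1.27 ± 0.10, adjusted p = 1.73e-06), and its mean signal per base differed by 0.41 (adjusted p = 0.0574). TNIP1 had 3.39, 4.003 and 3.67 against 1.32, 1.23 and 1.28 (1.53 ± 0.08, adjusted p = 7.38e-08), and its mean signal per base differed by −0.36 (adjusted p = 0.0859). Of the other lists, MYBL1, S1PR2, an ITGB2 region, BTG2 and ARHGDIB (0.73 ± 0.11, limma, adjusted p = 0.000251) were higher in treated Raji. JUND was lower (−0.21 ± 0.08, limma, adjusted p = 0.0467). ID2 ran against the set, with 0.589, 0.633 and 0.489 in Raji and 1.28, 1.43 and 1.21 in REH (−1.20 ± 0.11, adjusted p = 4.82e-06).

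**Figure D3:**
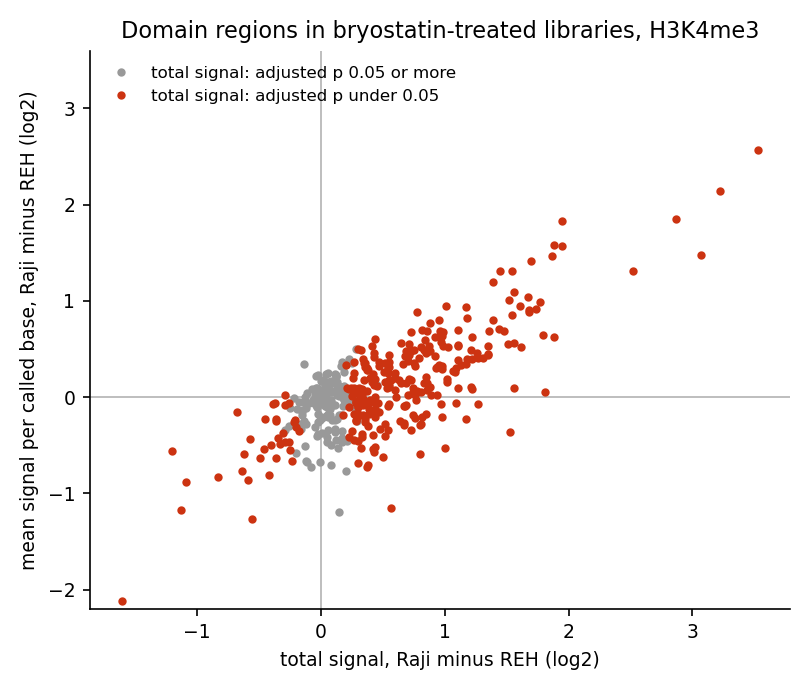
Each point is 1 of 423 merged H3K4me3 regions over the domains in bryostatin-treated libraries, with the log2 difference, Raji minus REH, in total signal on the x axis and in mean signal per called base on the y axis, and red where the total signal passed an adjusted p of 0.05. Of the 425 regions tested, 340 lie above 0 on the x axis, and 2 regions that share a name are not drawn.

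Bryostatin moved few of the domains in Raji. Of 551 merged regions tested, 3 had more H3K4me3 signal in treated cells and 0 had less (limma, adjusted p under 0.05; 58 had an unadjusted p under 0.05), against 0.155% and 0% of all 9031 regions. They were LPIN1, DUSP5 and PTPN6. The untreated libraries of this comparison also chose the domains. The median log2 change, treated minus untreated, was 0.00 over the domains and −0.01 over all regions, after centring each library on its median region, which removed a shift of 0.26.

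LPIN1, a phosphatidic acid phosphatase that makes diacylglycerol, had 0.562, 0.748 and 0.612 multiples of the median region untreated and 1.25, 1.28 and 1.12 treated (log2 change 0.94 ± 0.13, SE, adjusted p = 0.0281). DUSP5 had 2.83, 2.28 and 2.16 untreated and 4.72, 4.28 and 4.23 treated (0.87 ± 0.11, adjusted p = 0.0281). PTPN6 had 2.05, 2.63 and 2.56 untreated and 3.78, 4.67 and 4.06 treated (0.79 ± 0.12, adjusted p = 0.0455). In all 3 every treated library was above every untreated one. None of the 3 passed with the mean signal per base in place of the total signal (0.68, 1.05 and 0.51 for DUSP5, LPIN1 and PTPN6), and leaving out single libraries gave 0 to 5 called domains: 1 without untreated replicate 1, 5 without untreated replicate 2, and 0 without untreated replicate 3 or any 1 treated library.

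Same-numbered Raji libraries deviated together, so they were also compared as pairs. With the replicate number as a block 29 domains passed, 17 higher and 12 lower, against 1.10% and 0.399% of all 9031 regions. LPIN1, DUSP5 and PTPN6 were among the 17. The largest changes with separated groups were those of ITGB2, PLD4, LPIN1, LIME1 with SLC2A4RG, and RASSF4. The ITGB2 region around its wider domain had 0.287, 0.564 and 0.401 untreated and 0.749, 1.41 and 1.17 treated (log2 change 1.41, adjusted p = 0.000254 with the block and 0.135 without). PLD4, a lysosomal nuclease, fell by 1.17 on the log2 scale (adjusted p = 0.000734 with the block).

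Other listed genes that passed with the block were CD22, BTG2, TRAF1 and the narrower ITGB2 domain, all higher, and ITGB7, a beta chain of gut-homing integrins, which was lower. CD22 had 1.48, 1.98 and 1.69 untreated and 2.36, 2.65 and 2.16 treated (log2 change 0.48, adjusted p = 0.0167 with the block and 0.476 without). ITGB7 had 1.31, 1.54 and 1.26 untreated and 0.804, 1.05 and 0.916 treated (−0.57, adjusted p = 0.0108 with the block and 0.331 without). BTG2, an antiproliferative early response gene, changed by 0.37 (adjusted p = 0.0228 with the block). None of the 11 germinal centre and mature B cell genes passed in either fit, and their median change was 0.05.

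Length and H3K4me2 gave no call in the domains. For the called H3K4me3 length, 0 of 551 regions passed in either direction (limma; 24 had an unadjusted p under 0.05), against 0.0443% higher and 0% lower of all regions. The log2 change was above 0 in 194 regions (35.2%) and in 49.5% of all regions, with medians of −0.04 and 0.00. Since the domains were selected on length in these untreated libraries, their treated minus untreated length leans below 0 by the choice itself, and nothing is read from these shares. For H3K4me2 in Raji, 0 of 517 passed (42 had an unadjusted p under 0.05), as did 0% higher and 0% lower of all 9312 regions, with medians of 0.06 and −0.03. All treated H3K4me2 libraries were deeper (15.6, 18.8 and 16.1 M reads) than all untreated ones (8.31, 6.70 and 13.9 M), and the part of depth in these medians was not tested.

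In REH, where the same stretches carry shorter peaks, 417 regions were tested for H3K4me3. Bryostatin raised 7 and lowered 5 (limma, adjusted p under 0.05), against 0.815% and 0.857% of all 7238 regions, with medians of −0.01 and 0.00. The rule also kept the untreated REH width under 5000 bp, so the untreated libraries here are in part the ones that chose the domains, and changes in length lean upwards by that choice. The largest was the fall at DTX1, a regulator of Notch signalling, with 1.34, 1.36 and 1.82 untreated and 0.884, 0.783 and 0.857 treated (−0.83 ± 0.11, SE, adjusted p = 0.00196). RUBCNL, an autophagy regulator, had 0.679, 0.645 and 0.653 untreated and 1.03, 0.983 and 1.10 treated (0.65 ± 0.08, adjusted p = 0.000871). CD22 had 0.530, 0.539 and 0.473 untreated and 0.786, 0.864 and 0.729 treated (0.62 ± 0.09, adjusted p = 0.00479).

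ECE1 had 0.808, 0.842 and 0.861 untreated and 0.640, 0.608 and 0.503 treated in REH (−0.53 ± 0.10, adjusted p = 0.0186). SH2B3, an adaptor that restrains cytokine receptors, had 1.66, 1.60 and 1.49 untreated and 2.20, 2.27 and 2.30 treated (0.52 ± 0.06, adjusted p = 0.00105). Its called length went from 4120, 3770 and 3370 bp to 6420, 6500 and 6120 bp, and its mean signal per base had the opposite sign (−0.17). PTPN6 rose in REH as well (0.38 ± 0.06, adjusted p = 0.00806). With the mean signal per base none of the 417 regions passed.

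**Figure D4:**
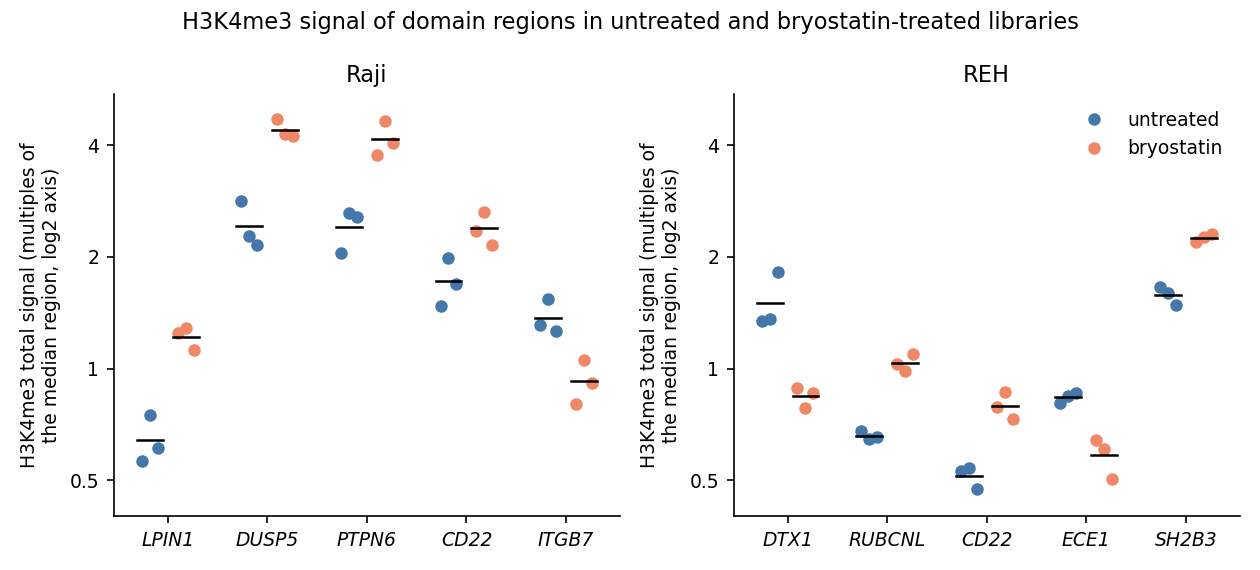
Points are single libraries and bars are means of 3, with the H3K4me3 total signal in multiples of the median region on a log2 axis, untreated in blue and bryostatin-treated in orange. For the 5 regions of each line the untreated and treated libraries do not overlap, and CD22 and ITGB7 in Raji passed the adjusted p only with the replicate block.

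ITGB2 and ID2 had H3K4me3 peaks in more treated than untreated REH libraries (chosen after their values were seen). This has a background over all 557 domains, of which 493, 428 and 446 held a REH peak untreated and 429, 483 and 458 treated. In replicates 2 and 3 more domains thus held a peak after treatment, and in replicate 1 fewer did. At the wider ITGB2 domain untreated REH had 0 bp in all libraries and treated REH had 0, 3330 and 2340 bp, and the H3K27me3 length there was 3810, 2400 and 2020 bp untreated and 0, 1110 and 50 bp treated. At ID2, untreated REH had 4310, 0 and 0 bp of H3K4me3 and treated REH had 4410, 4930 and 4590 bp. These lengths were not tested.

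The difference between the lines in the response to bryostatin was tested as an interaction (limma). Of 416 regions over the domains 2 passed, ECE1 and RUBCNL, and 31 had an unadjusted p under 0.05, against 0.0776% called of 6447 regions in all. With the replicate number within each line as a block 4 passed, the same 2 with CSRNP1 and DTX1, against 0.419% of all regions. The untreated libraries of both lines that chose the domains enter this test too, and it was run on total signal only.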

How the data were processed

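The authors aligned Cut&Tag reads to hg38 with Bowtie2, scaled the coverage by RPKM and called SEACR stringent peaks. Each deposited peak carries a signal, which is that coverage summed over its length, and the highest coverage in it. In 48 libraries the heights are whole multiples of the value of 1 read (within 0.002 of a read), from which mapped reads were computed; the 6 libraries of NALM6 replicate 1 carry another scaling. Peaks were called per library, and the part of depth in which peaks were found was not tested.

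The domains, gene lists and motifs were chosen with earlier results of these data known. Merged regions with a peak in all libraries compared were fitted on log2 total signal, centred on the library's median region, by limma 3.58.1, run in R 4.3.3 with a mean-dependent prior in eBayes. P-values were adjusted over all regions (Benjamini-Hochberg, 0.05), and the fit was checked on simulated data. The authors' DESeq2 counts need reads, so signal was used. Gene starts come from GENCODE 44. Named were the 10 widest domains, 5 on each side of the width limits, all listed genes, per comparison the 5 largest changes that passed with separated groups, and the 5 widest with no H3K4me3 in REH and NALM6 or with H3K27me3 in REH; others are marked. Tables were handled with pandas 2.3.3 and figures drawn with matplotlib 3.10.9.

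Same-numbered libraries correlated in their deviations from group means in every pair for Raji H3K4me3 (0.482 to 0.542 for signal, 0.125 to 0.161 for length) and REH H3K4me3 (0.179 to 0.311), and these numbers were taken as pairs. Alternatives were other signal measures, normalizations, filters, limits of the rule and leaving out each library. IgG libraries were not used here.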

Additional observations from a re-analysis of the deposited data

Results flagged for a closer look

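In total H3K4me3 signal, the response to bryostatin was called different between the lines at 2 domains. The test was the interaction of line and treatment in limma over the 12 H3K4me3 libraries of Raji and REH (added after seeing the data). It covered 416 regions over the domains, and 2 of them passed an adjusted p of 0.05, against 0.0776% of 6447 regions in all. At ECE1 the log2 change was 0.20 in Raji and −0.53 in REH, a difference of 0.73 (adjusted p = 0.0448), with treated above untreated in every Raji library and below in every REH library. At RUBCNL it was −0.01 in Raji and 0.65 in REH, a difference of −0.66 (adjusted p = 0.0448), with treated above untreated in every REH library and overlapping groups in Raji. CSRNP1 had the next smallest p, with 0.45 in Raji and −0.37 in REH (adjusted p = 0.0695). With the replicate block the adjusted p was 0.015 at ECE1 and at RUBCNL and 0.0101 at CSRNP1 (limma). The untreated libraries of both lines also chose the domains by width, and total signal is summed over called length, so the test draws in part on the values of the rule. It was not run on the mean signal per called base.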

How the results depend on the processing

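The number of domains, 557, was 1123 with a limit of 4000 bp in both lines, 110 with 7500 bp and 135 with a REH limit of 2500 bp. Leaving out each library gave 328 to 627 domains. The 440 domains that met the rule in treated libraries were 273 to 455 when each treated library was left out, and with replicates 2 and 3 alone (chosen after seeing the data) 454 of 619 met it. The 64 domains with no REH peak were 64 to 110 without single REH libraries, and the 41 broad in NALM6 were 166 at 4000 bp.

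In Raji the 3 H3K4me3 calls became 0 with the maximum signal, the mean signal or eBayes without trend, and 29 with the replicate block. They were 0 to 5 with each library left out. The 12 REH calls became 2 with the maximum signal, 0 with the mean signal and 4 without centring, and 5 to 20 with each library left out. They were 15 with the replicate block, and the 2 calls of the interaction of line and treatment became 4 with it. With the mean signal the 289 calls between treated lines became 145 and the 285 H3K4me2 calls became 137. SH2B3 in REH reversed with the mean signal (−0.17). The cause was not tested. Same-numbered libraries were not pairs in the other 3 comparisons, where the replicate block gave 0, 290 and 295 calls. For H3K4me3 length and H3K4me2 in Raji every alternative gave 0 calls in the domains. A missing peak does not show that the mark is absent, and the part of depth in missing peaks was not tested.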

Other observations

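The share of Raji regions called in all 3 untreated libraries that were broad in Raji only differed between chromosomes. It was highest on chromosome 11 (47 of 512 regions, 9.18%) and chromosome 8 (27 of 326, 8.28%) and lowest on X (5 of 317, 1.58%). Copy number and gene content differ between chromosomes, and their part in these shares was not tested.

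Domains that were broad in NALM6 replicates 2 and 3 as well numbered 41. The widest were RPL23A with TLCD1 and NEK8, KREMEN2 with PAQR4, CHMP2A with UBE2M, PYM1 with DGKA, LIMD2 and SYVN1, of which RPL23A encodes a ribosomal protein and SYVN1 a ubiquitin ligase of the endoplasmic reticulum. SCD, the stearoyl-CoA desaturase, had no H3K4me3 peak in untreated REH but a NALM6 region of 5510 bp.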
